A study of Daphnia magna with 24 samples.

Results

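Of 7388 array features that could be tested, out of 7680 on the array, 90 (1.22%) had moderately positive log ratios in Daphnia magna after exposure to water from each of 3 sites at Greenhorn Mine in California, here called mine-water sites. They were chosen by their measured values. Every measured exposure at the drainage entry, downstream 1 and downstream 2 had to lie above 0, each of these 3 site means had to reach 0.4, and the mean of the 3 site means had to lie from 0.6 to under 1.2. The fourth site, upstream of the mine, entered the choice only through the need for a value in at least 2 of its 3 exposures.

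Daphnia magna is a clonal freshwater crustacean that filters its food from the water and is a standard animal of toxicity tests. Mine drainage forms where sulphide minerals are oxidised, which releases acid and dissolved metals such as copper. Copper is an essential enzyme cofactor that becomes toxic in excess, and in freshwater animals it disturbs sodium uptake across the gill. Animals handle excess metal with metallothioneins and glutathione, which bind it, and with ATPases that export copper from cells. The features carry array IDs without gene names in the sources used here, and 0 of the IDs matched a RefSeq table of Daphnia magna genes, so whether any of the 90 belongs to these systems is not known.

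The animals came from 1 genetically homogeneous stock and were adult females, 14 to 16 days old. They were kept for 24 h at 23.5 °C in the collected water, and each exposure pooled 10 to 15 whole animals. Unexposed animals in COMBO, a defined culture medium, were the control, so each ratio also sets field water against medium. Each of the 4 sites had 3 exposures, and each exposure was hybridised on 2 arrays of 2 colours each, with Cy3 and Cy5 exchanged, 24 arrays in all. The design text says that the sites differed in copper, without giving amounts.

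The deposited log ratios were taken as log2, since their base is not given, and folds hold only for that base. That positive means more RNA after exposure is likely from the design but unstated, so values are called positive and negative. Arrays held 7015 to 7472 values, with medians from -0.0359 to 0.0257. Both arrays of an exposure correlated across all features with r from 0.149, in upstream exposure 3, to 0.772. Among the 90 members, 64 had a value on all 24 arrays (71.1%, against 68.7% of all features tested) and 88 had one in all 12 exposures. The labels do not say whether exposures were separate cultures or shared control RNA, so p-values reflect only how these exposures vary, which may be technical.

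Over the 90 members, the mean of the 3 mine-water site means had a median of 0.86, with a range from 0.62 to 1.19. On a log2 base this is a 1.81-fold ratio, from 1.53 to 2.29. The mean was under 0.8 in 32 members, from 0.8 to under 1 in 34 and higher in 24. Site means had a median of 0.85 for the entry, 0.83 for each downstream site and 0.11 for upstream. Over all features tested the medians were -0.024 for the entry, 0.021 and 0.0067 for downstream 1 and 2, and -0.012 for upstream. The mine-water values chose the members and are given as description.

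**Figure D1:**
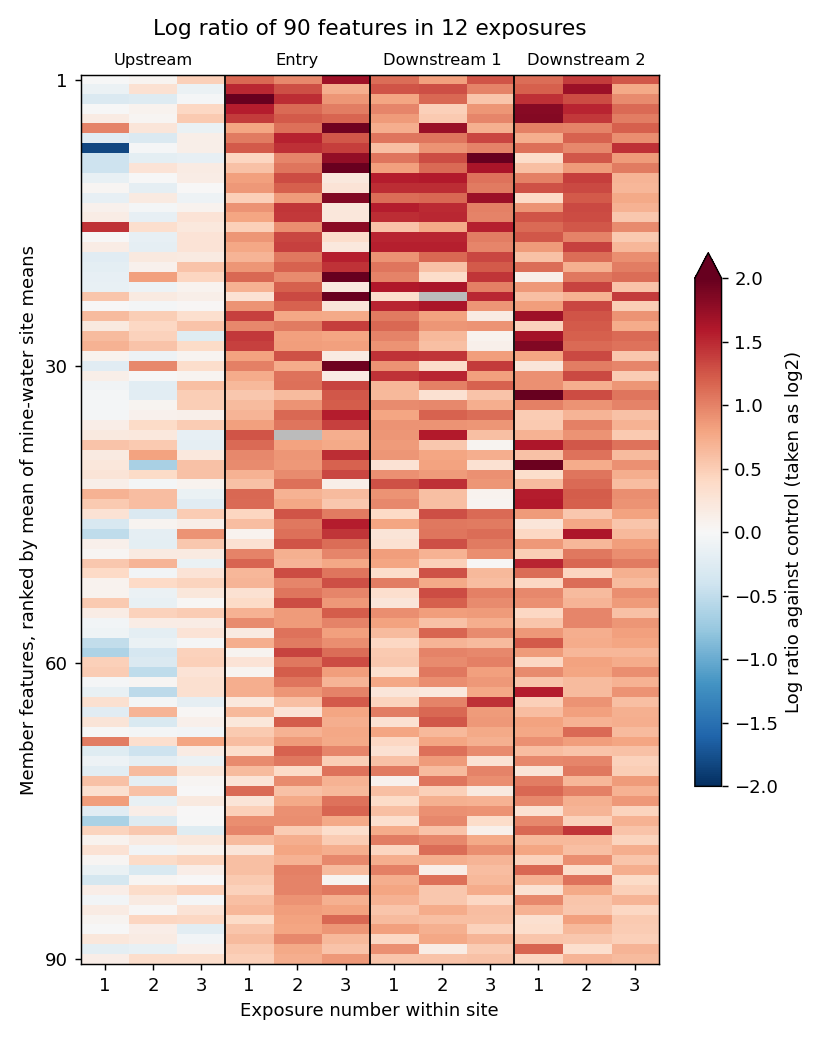
Log ratio against control (colour, taken as log2) of the 90 member features (rows, ranked by the mean of the 3 mine-water site means) in 12 exposures (columns, 3 per site). Grey cells have no value. The 9 mine-water columns are red throughout, as the choice required, while the 3 upstream columns hold both colours and values mostly near 0.

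At both ends of the range the choice was narrow. P8CH12 (0.616) and P11AE4 (0.625) were the members nearest above the lower bound. The features P8CD7 and P7AF1 met every other criterion and fell just short of 0.6, at 0.599 and 0.599. At the upper end A6A24 (1.19) and P3DH4 (1.19) were members, while P10CC9 (1.201) and P13BG7 (1.206) were not. With the same criteria, 32 features had a mean under 0.6 and 54 one of 1.2 or more, and 223 met the criteria of the members with every sign turned.

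Single exposures differed within a site. At the entry, the members' median was 0.68 in exposure 1, 0.99 in exposure 2 and 0.95 in exposure 3. At downstream 1 it was 0.80, 0.92 and 0.88, and at downstream 2 it was 0.86, 0.98 and 0.72. Entry exposure 1 was the lowest of its site for 51 of 89 members with all 3 values (57.3%, against 30.5% of all features tested). Downstream 2 exposure 3 was the highest of its site for only 6 of 90 members (6.67%, against 27.3%). In the features with a mean of 1.2 or more, entry exposure 1 also had the lowest median of its site (1.66, against 2.36 and 2.18). So had downstream 2 exposure 3 (1.66, against 2.13 and 1.77). The members' median SD between exposures was 0.35 for the entry, 0.29 for downstream 1 and 0.26 for downstream 2, against 0.17, 0.15 and 0.20 over all features tested. Upstream it was 0.23, against 0.26 over all features tested.

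**Figure D2:**
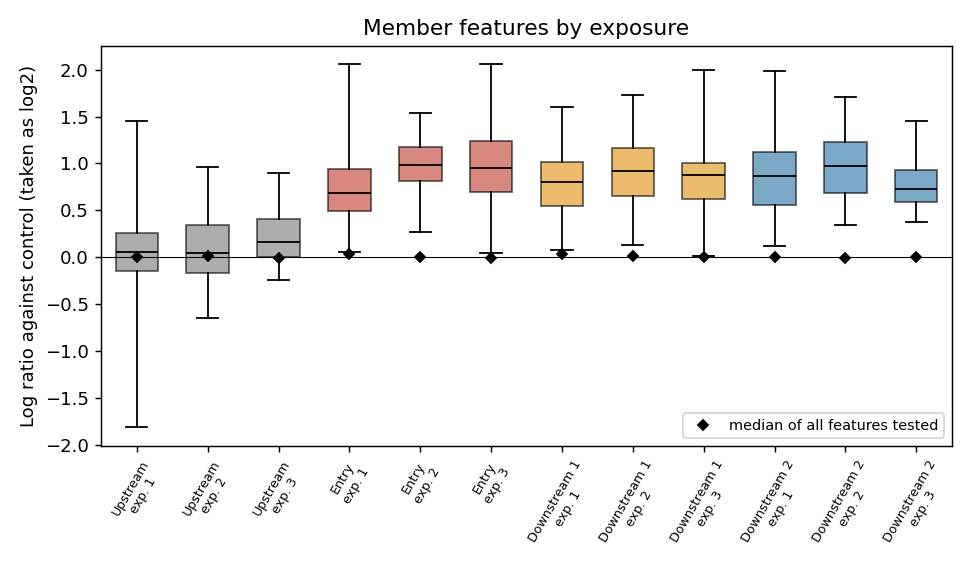
Log ratio against control (taken as log2) of the 90 members in each of 12 exposures. Boxes span the quartiles with the median as a line, whiskers reach the lowest and highest member, and diamonds mark the median of all features tested. Mine-water medians lie between 0.68 and 0.99, upstream medians between 0.043 and 0.16.

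A mean above 0 over the arrays with a value was required of each measured mine-water exposure, so the sign on single arrays there was largely fixed by the choice. Of the members with a value on both arrays of a mine-water exposure, 94.4% (downstream 1 exposure 3) to 100% (entry exposure 2 and downstream 2 exposures 2 and 3) were positive on both. Upstream this share was 35.7%, 34.5% and 54.1% in exposures 1, 2 and 3. The dye effect itself, the difference between the array with exposed RNA in Cy5 and its partner divided by 2, was not used by the choice. It passed limma's test (Benjamini-Hochberg adjusted p under 0.05) in 53 of 89 members, or 59.6%, close to the 57.4% of all features. Its median size was 0.10 in members and 0.12 in all features tested.

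The most positive dye effects among members were those of A3O21 (0.30, limma adjusted p 0.15), P6BB10 (0.25, adjusted p 4.9e-05) and P4DA5 (0.24, adjusted p 6.9e-06). The most negative were those of P6BG3 (-0.26, adjusted p 2.7e-05), P5AB6 (-0.25, adjusted p 0.023) and A6A24 (-0.24, adjusted p 0.00034). These effects cancel where both orientations are averaged, but not in an exposure with a value from a single array. A3O21 had a value on only 18 of the 24 arrays, so some of its exposures keep the dye effect. The other members named here had a value on all 24.

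How evenly the mine-water exposures ran differed between members. The SD over the 9 mine-water exposures ran from 0.13 to 0.61, with a median of 0.34, and the range over them exceeded 1 in 46 members. The 5 most even members were P8CH12, A1L21, A6O9, P8AC4 and P10BD10. P10BD10 stood at 0.94, 0.86 and 0.99 in entry water, and the exposures of downstream 1 gave 0.80, 0.59 and 0.73. Those of downstream 2 gave 0.55, 0.97 and 0.88. Its upstream values were -0.050, 0.14 and 0.15, below all 9 others. A1L21 held 0.77 ± 0.09 in entry water, 0.64 ± 0.10 in that of downstream 1 and 0.55 ± 0.15 in that of downstream 2, against 0.15 ± 0.13 upstream (SD, n = 3). At the other extreme A3O21 spanned 0.066 to 1.62 over the mine-water exposures and -0.50 to 0.90 upstream.

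The choice set no bound on the upstream values. Like the mine-water values, however, they are ratios to unexposed animals in COMBO. Whether control RNA was shared is not known, so the upstream signs may not be independent of the choice, which was not tested. In limma at an adjusted p under 0.05, 0 of 90 members changed upstream against control, and neither did any feature tested (0% of 7388). An unadjusted p under 0.05 was reached by 12 members (13.3%), all of them positive, against 6.5% of all features, of which 262 were positive and 218 negative. The 12 include P4DA5, P9BF11 and P9DD8, whose values were closely alike in all 12 exposures, so the 12 are not separate observations. The count of 12 became 5 with scaled arrays, 6 with the upstream exposures fitted alone and 22 from the arrays with exposed RNA in Cy5. The share of all features under these alternatives is not given here. The unadjusted 95% interval of an upstream mean extended a median of 0.41 above and below it over the members, with a range from 0.17 to 0.77.

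Upstream means were positive in 68 of 90 members (75.6%), against 47.1% of all features tested. All 3 upstream exposures were positive in 20 members (22.2%, against 11.3%) and all negative in 6 (6.67%, against 8.41%). The 20 include P4DA5, P9BF11 and P9DD8, whose values were closely alike, so the 20 are not separate observations. An upstream mean above 0.4 occurred in 5 members (5.56%, against 4.57%). The members' median was 0.058 in upstream exposure 1, 0.043 in exposure 2 and 0.16 in exposure 3, and exposure 3 was the highest of its site in 45 of 90 members (50%, against 26.3%). In the features with a mean of 1.2 or more, upstream exposure 3 also had the highest median (0.26, against 0.16 and 0.15). Without exposure 3 the median upstream mean of the members went from 0.11 to 0.044, and without exposure 1 or 2 it was 0.097 or 0.15. Over all features the correlation of both arrays was lowest in exposure 3. A different measure, the members' median absolute difference between both arrays, was 0.23 there, against 0.29 and 0.28 in exposures 1 and 2. The same measure over all features is not given here.

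A6O9 had the lowest upstream p of the members, and its upstream values of 1.02, 0.34 and 0.78 overlapped those of every other site. Entry exposures gave 0.62, 0.85 and 0.75, those of downstream 1 gave 0.42, 0.80 and 0.71, and those of downstream 2 gave 0.91, 0.84 and 0.78. Its upstream mean of 0.71 ± 0.35 (SD, n = 3; limma adjusted p 0.56) lay between its means at downstream 1 (0.64) and the entry (0.74). Among members with 3 positive upstream exposures, those of next lowest p were P8CH12, at 0.28 ± 0.12 upstream, and P4DA5, at 0.37 ± 0.20 (SD, n = 3; limma adjusted p 0.77 each). With exposed RNA in Cy5 alone, P4DA5 reached 0.65 and passed (adjusted p 0.039), and it is among the members with the strongest dye effect. P11CH3, singled out after its values were seen, was the only other member whose upstream mean (0.55 ± 0.15) exceeded a mine-water mean, that of downstream 1 (0.53 ± 0.40).

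Among members with 3 negative upstream exposures, those of lowest p were A1G24, P5BC1 and A4F7. A1G24 read -0.64, -0.26 and -0.011 upstream, against 0.93, 0.93 and 0.76 at the entry. P5BC1 averaged -0.22 ± 0.24 and A4F7 -0.26 ± 0.14 upstream (SD, n = 3; limma adjusted p 0.79 and 0.80, and 0.79 for A1G24). None of these 3 passed, and their mine-water exposures were all positive. A4F7 varied widely among the latter, with 0.42, 0.98 and 1.76 at the entry and 1.07, 1.31 and 1.99 at downstream 1.

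**Figure D3:**
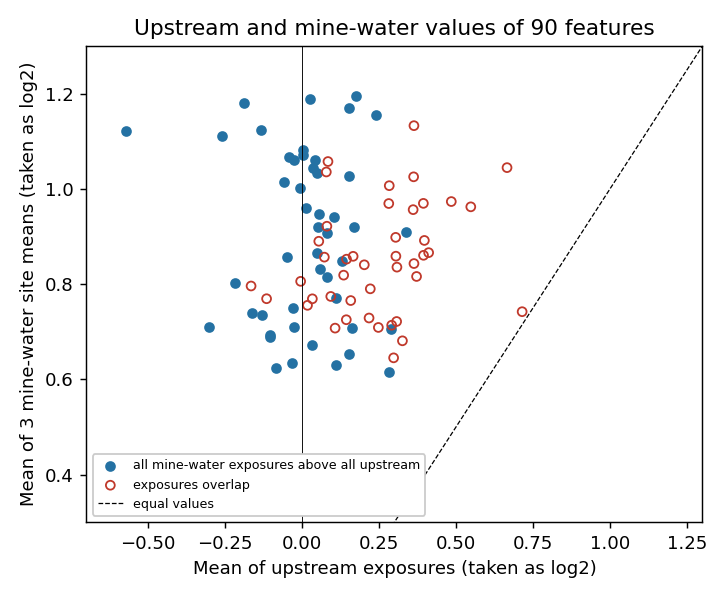
Mean of the 3 mine-water site means (vertical) against the mean of the upstream exposures (horizontal), both taken as log2, for each of the 90 members. Filled points are the 47 members whose 9 mine-water exposures all exceeded their upstream exposures, open circles the others. A6O9, at 0.71 upstream, lies nearest to the line of equal values.

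Because upstream water is also field water, the mine-water sites were set against it. In 47 members the lowest mine-water exposure lay above every upstream exposure, which held for 2.49% of all features tested. The mine-water side of these contrasts was used by the choice, so the counts, and which members passed, are description. For the entry 15 of 90 members passed limma's adjusted threshold, all positive, against 0.69% of all features that passed as positive. For downstream 1 there were 5 members (0.311% of all features) and for downstream 2 there were 9 (0.541%). In total 18 members passed for at least 1 of these sites, and P5AB6 and A1L19 passed for all 3. Without upstream exposure 1 or 2, neither of them passed for all 3. Leaving out upstream exposure 1 lowered the entry count to 2, and upstream exposure 2 to 1. Leaving out entry exposure 2 gave 1 and entry exposure 3 gave 2. The count of downstream 1 fell to between 0 and 3 without any 1 exposure of both sites. That of downstream 2 was 0 without upstream exposure 1 or 2, and 2 and 3 without its own exposure 1 and 2. The share of all features is not given here for passing at 1 or more sites or at all 3. Nor is it given for the counts without an exposure, so nothing is read from these. With a replicate block for same-numbered exposures, downstream 2 against upstream gave 18 members over all 12 exposures (0.704% of all features) and 0 with both sites alone (0%).

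P5AB6 had the widest gap between upstream and mine-water exposures. Upstream it was at -0.22, -0.29 and 0.12. Entry exposures gave 1.03, 1.54 and 1.24, those of downstream 1 gave 1.07, 1.08 and 1.33, and those of downstream 2 gave 0.72, 1.17 and 0.93. The groups did not overlap, and the nearest exposures were 0.61 apart. Entry minus upstream was 1.40, downstream 1 minus upstream 1.29 and downstream 2 minus upstream 1.07. P5AB6 was named for this gap, and its mine-water values entered the choice. That it passed for all 3 sites is therefore description only, and no p-value of these differences is given. Without each exposure in turn these 3 differences stayed between 0.96 and 1.53. With exposed RNA in Cy3 alone they were 1.02, 1.01 and 0.64.

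A1L19 was the quietest member upstream, with values from -0.054 to -0.0022. Its mine-water exposures ran from 0.53 to 1.13, averaging 0.67 ± 0.13 in entry water, 0.73 ± 0.07 in that of downstream 1 and 0.84 ± 0.25 in that of downstream 2 (SD, n = 3). Differences from upstream were 0.70, 0.76 and 0.87. Again no p-value is given and that they passed is description only, since A1L19 was named for its gap to upstream. The mean of its mine-water site means was 0.54 over arrays with exposed RNA in Cy5 and 0.96 over those with it in Cy3.

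The other members with the widest gaps were P12BF4, A4F7 and P4CG4. P12BF4 read 2.06, 1.48 and 0.88 at the entry, and its upstream exposures were all negative, from -0.30 to -0.023. P4CG4 had upstream values of -1.82, -0.020 and 0.12, so its upstream mean of -0.57 ± 1.08 (SD, n = 3) rests on exposure 1. Its mine-water exposures lay between 0.60 and 1.46.

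**Figure D4:**
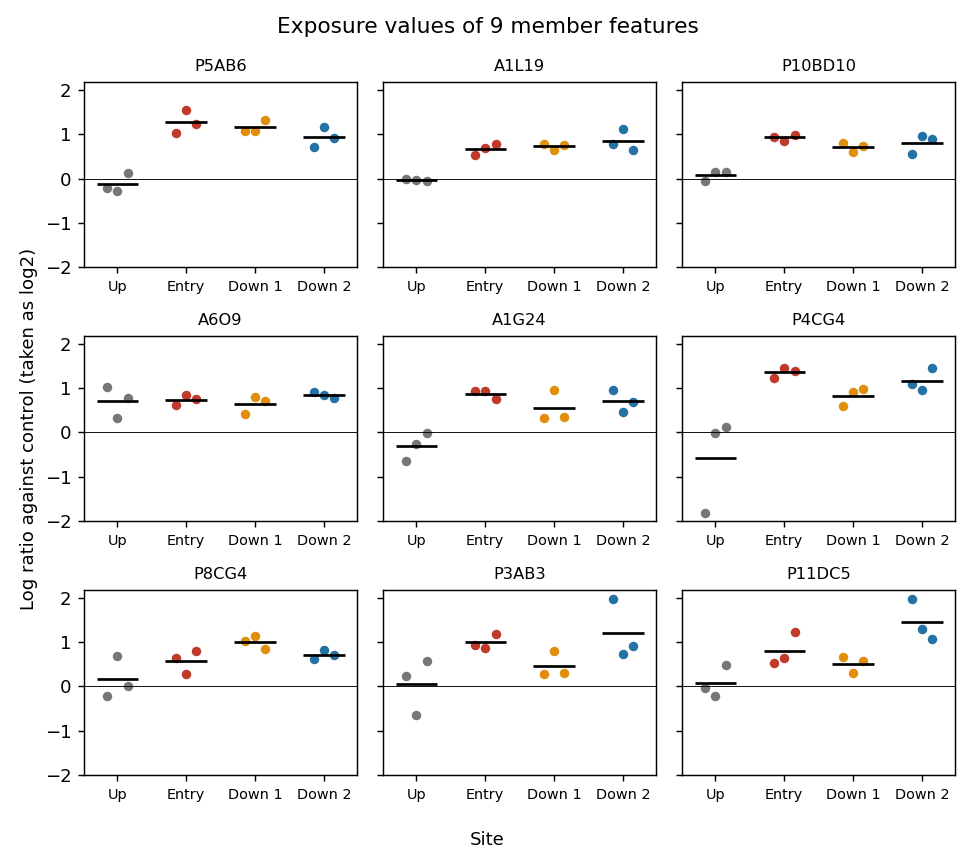
Log ratio against control (taken as log2) of 9 members at the 4 sites. Each point is an exposure and each bar the mean of 3 exposures. P5AB6, A1L19, P10BD10, A1G24 and P4CG4 have no upstream exposure as high as a mine-water exposure, while the sites of A6O9 overlap.

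Against control, 66 members passed limma's adjusted threshold at the entry (2.65% of all features passed as positive), 56 at downstream 1 (2.14%) and 70 at downstream 2 (3.52%). These are the values that chose the members, and nothing is read from the counts. All 3 sites passed in 37 members, 2 sites in 34, 1 site in 13 and none in 6. The 6 were A3H2, A3O21, A6E6, A6P16, A7L12 and P4CB3, named after their values were seen. The entry count was 29 without entry exposure 2. That of downstream 1 was 36, 16 and 31 without its exposure 1, 2 and 3, and 35 with scaled arrays. That of downstream 2 was 29 and 36 without its exposure 1 and 2.

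The choice treats the 3 mine-water sites alike, so it bounds the differences between them but fixes no sign. In limma, 0 of 90 members differed between any 2 of them at an adjusted p under 0.05, nor did any feature (0%). Downstream 1 minus entry had a median of -0.097 over the members (-0.64 to 0.72), downstream 2 minus entry -0.013 (-0.62 to 0.65) and downstream 2 minus downstream 1 -0.070 (-0.63 to 0.94). Over all features tested the medians were 0.039, 0.011 and -0.017. The sign of the first turned without entry exposure 3 (0.018), and that of the second without entry exposure 2 (0.052) or downstream 2 exposure 3 (0.014). The 95% interval of such a difference extended a median of 0.58 above and below it, and at least 0.24. The 3 site means lay within 0.2 of each other in 17 members and more than 0.5 apart in 30. The entry was the highest of the 3 in 39 members, downstream 1 in 26 and downstream 2 in 25.

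At an unadjusted p under 0.05, 13 members differed between the downstream sites (14.4%, against 3.55% of all features), 12 of them higher at downstream 2. The 12 include P10CH2, P2DE1, P3DE7 and P7AG10, whose values were closely alike in all 12 exposures, so the 12 are not separate observations. Without downstream 1 exposure 2 the 13 became 7, and without downstream 2 exposure 1 they became 6. For downstream 1 minus entry there were 6 members (6.67%, against 0.555%). The 6 include P1CE8 and P3DE8, whose values were also closely alike, so the 6 are not separate observations. The count of 6 became 2 without downstream 1 exposure 1 or 2, 1 without entry exposure 1 and 12 without entry exposure 2. For downstream 2 minus entry there were 3 (3.33%, against 3.42%). Leaving out 1 exposure gave 1 (without entry exposure 2 or 3 or downstream 2 exposure 1), 7 (without entry exposure 1) and 9 (without downstream 2 exposure 2). With scaled arrays the counts for downstream 1 and downstream 2 minus entry were 12 and 0, and with array weights that of downstream 2 minus entry was 15. All 24 arrays gave 16 members for downstream 1 minus entry, 5 for downstream 2 minus entry and 21 between the downstream sites. That fit estimated a consensus correlation of only 0.20 between arrays of an exposure, so both arrays together counted as more than 1 replicate. Exposed RNA in Cy3 alone gave 2 for downstream 1 minus entry. Downstream 2 minus entry gave 0 with both sites fitted alone. For the counts under alternatives the share of all features is not given here, so nothing is read from them. At the mine-water sites, members also had larger values and a larger median SD than all features tested. The part of this in the shares was not tested.

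Over all features, the deviations of same-numbered entry and downstream 1 exposures from their site means correlated moderately (r from 0.404 to 0.525). Paired by number, 15 members had an unadjusted p under 0.05 for downstream 1 minus entry in the fit of all 12 exposures (1.42% of all features), 8 positive and 7 negative. With both sites alone there were 30 (4.63% of all features), 15 of each sign. None passed the adjusted threshold in either fit. With this block, downstream 2 minus entry gave 11 members of unadjusted p under 0.05 over all 12 exposures and 7 with both sites alone. Between the downstream sites alone it gave 21. The shares of all features for these last counts are not given here, so nothing is read from them. The numbers did not pair the exposures of these other sites by the same check.

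Few members separated the mine-water sites without overlap of their exposures. Downstream 1 lay above the entry in 2 of 90 members and below it in 6, against 3.52% and 1.89% of all features tested. P8CG4 had the larger positive difference, with 0.64, 0.27 and 0.79 at the entry and 1.02, 1.14 and 0.86 at downstream 1 (0.44, SE 0.22, limma adjusted p 1). P3AB3 had the largest negative one, with 0.94, 0.87 and 1.18 at the entry and 0.29, 0.80 and 0.31 at downstream 1 (-0.53, SE 0.37, adjusted p 1). P3AB3 also reached 1.97 in downstream 2 exposure 1, against 0.74 and 0.92 in the others of that site.

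Downstream 2 lay below the entry in 2 of 90 members and above it in 0, against 3.48% and 4.07% of all features tested. The larger of both differences was that of P9BC6, at 0.69, 1.15 and 1.58 at the entry and 0.51, 0.68 and 0.58 at downstream 2 (-0.55, SE 0.20, limma adjusted p 1). Between the downstream sites, 11 of 90 members were higher at downstream 2 and 5 lower, against 3.99% and 4.59% of all features tested. The 11 include P10CH2, P2DE1 and P3DE7, whose values were closely alike, so the 11 are not separate observations. P11DC5 went from 0.66, 0.31 and 0.57 to 1.99, 1.31 and 1.06 (0.94, SE 0.28, adjusted p 1). P6BF2 went from 0.79, 1.06 and 1.04 to 0.25, 0.77 and 0.56 (-0.44, SE 0.23, adjusted p 1).

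Some members had closely alike values in all 12 exposures. Among 3828 pairs of the 88 members with complete values, the median root mean square difference was 0.50, and 16 pairs (0.418%) differed by under 0.1. This share was 0.473% in the features with signs turned and 0.151% in those with a mean of 1.2 or more. The 16 pairs of members joined 18 members into 5 sets, which were formed after the values were seen and are not tested. The largest set held P11AC2, P11AF4, P1CE8, P1CH8, P3DE8, P4CH2 and P9BH3. In entry exposure 3 these 7 lay between 0.17 and 0.24, against 1.08 to 1.43 in entry exposure 2 and 0.69 to 0.91 in exposure 1. In downstream 1 they were at 1.44 to 1.60, 1.43 to 1.64 and 0.83 to 1.08, and in downstream 2 at 0.80 to 1.01, 1.32 to 1.38 and 0.49 to 0.70. Upstream they stayed between -0.18 and 0.27. At each mine-water site exposure 3 gave the lowest values of these 7.

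A second set held P10CH2, P2DE1, P3DE7 and P7AG10. These 4 were at 0.016 to 0.067 in downstream 1 exposure 3 and at 0.79 to 0.95 and 0.47 to 0.60 in its exposures 1 and 2. In downstream 2 exposure 1 they reached 1.52 to 1.62. Upstream they were positive in exposures 1 and 2 (0.52 to 0.70 and 0.53 to 0.68) and negative in exposure 3 (-0.22 to -0.13). The other sets were P4DA5 with P9BF11 and P9DD8, A6D21 with P11CG11, and P10BD10 with P12BA7.

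The dye differences of single exposures, which did not enter the comparison of values, were also closer within some sets. Their median root mean square difference was 0.086 in the set of 4 and 0.13 in the set of 7, against 0.22 over all pairs of members, but 0.23 between A6D21 and P11CG11. No other tested feature with complete values came within 0.1 of a member of these 5 sets. Whether features of a set carry the same cDNA is not known here.

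**Figure D5:**
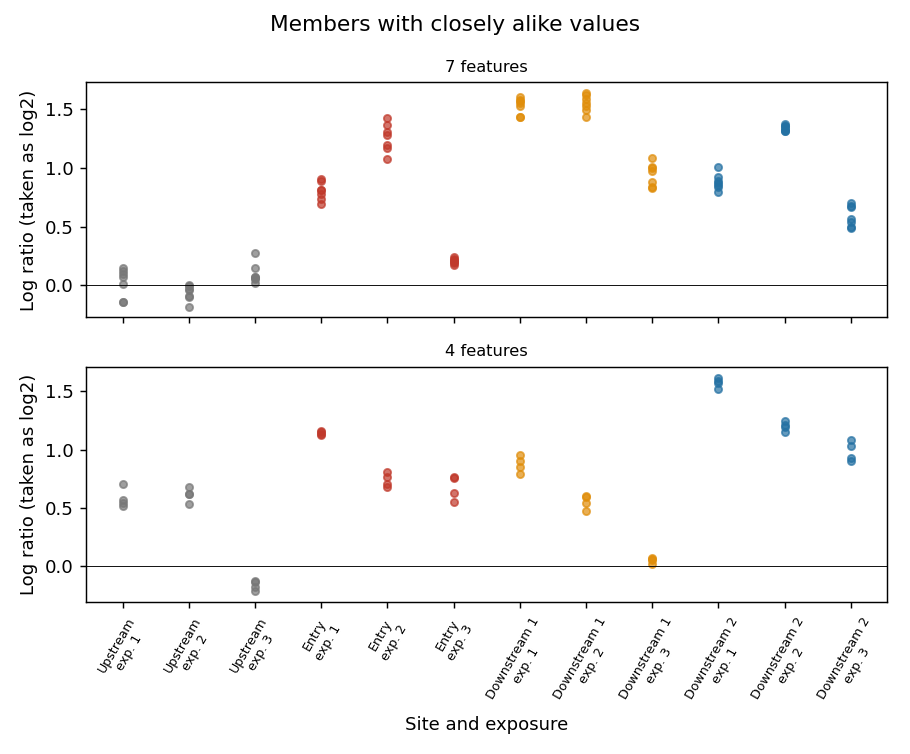
Log ratio against control (taken as log2) in each of 12 exposures for the set of 7 members (top) and the set of 4 members (bottom) with closely alike values. Each point is a feature. In entry exposure 3 the 7 lie between 0.17 and 0.24, and in downstream 1 exposure 3 the 4 lie between 0.016 and 0.067.

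The IDs themselves start with A or P and a number. Members had an A in 21 cases (23.3%, against 33.2% of all features tested) and a P in 69. They came from 18 of the 20 starting codes, with at most 8 members, or 2.11% of its tested features, in P11, and 0 in A2 and A5. Among members, P3DE7 and P3DE8 formed the only pair whose IDs differ by 1 in the last number, and they fell into different sets of alike values.

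Other groups of features were compared by what the choice did not use. The 54 features with a mean of 1.2 or more had a median upstream mean of 0.18, with 88.9% positive and 35.8% of those with complete upstream values positive in all exposures. The 223 features with signs turned were negative at the mine-water sites, yet their upstream means had a median of 0.096 and 72.6% were positive. Their median was 0.63 in upstream exposure 2 and -0.12 in exposure 1, where the members were at 0.043 and 0.058. The differences between these groups were not tested.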

How the data were processed

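The authors deposited 1 table of log ratios per array, taken as log2. Per the labels, aminoallyl cDNA was coupled to Cy3 or Cy5 and the dyes were exchanged on the second array. The sources used here name no scanner, background correction, spot filter, normalization, scale, centring or direction. The median of each array was subtracted from its values, and an exposure, the mean of its dye-swapped arrays, counts as 1 replicate. Where 1 of both arrays had no value for a feature, the other array alone gave the exposure. Features with 2 or more exposures at each of 4 sites were kept (7388, with 292 left out). One limma fit of all 12 exposures (limma 3.58.1, R 4.3.3, 8 residual and 1.79 prior degrees of freedom) tested site means and contrasts, with Benjamini-Hochberg adjustment over all features. The dye effect was tested over features with 6 or more complete exposures. The steps were tested on simulated data. The precision is limited by the number of arrays.

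The members, the rules and the comparisons were chosen with earlier results of these data known. Features were named by rule: the most even members, those with the largest gap to upstream, the lowest upstream p, the largest differences without overlap between mine-water sites, the largest dye effects and those beside the bounds. Same-numbered exposures were checked as pairs over all features by the correlation of deviations from site means. It was 0.404 or more for the entry with downstream 1 and 0.248 or more for upstream with downstream 2. In the other pairs of sites the lowest were -0.6, -0.433, -0.455 and -0.31. The pairing comes from these data, not from the labels. Alternatives were scaled arrays, values without centring, all 24 arrays with the exposure as a random block, array weights, 1 dye orientation, each exposure left out, only the sites compared, complete features and the exposure number as a block. Figures were drawn with matplotlib 3.10.9.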

Additional observations from a re-analysis of the deposited data

Results flagged for a closer look

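Sites differed by the test of the difference itself in some members: 15 for the entry minus upstream, 5 for downstream 1 minus upstream and 9 for downstream 2 minus upstream passed limma's adjusted threshold, against 0.69%, 0.311% and 0.541% of all features. The mine-water values had chosen these members, so the counts are no independent evidence. In 6 members every upstream exposure was negative while every mine-water exposure was positive, a difference in sign that was not tested as such. The choice required the positive side, and all upstream exposures were negative in 6.67% of members against 8.41% of all features, so the count does not exceed the background. They were A1G24 (-0.30 ± 0.32 upstream), A4F7 (-0.26 ± 0.14), P5BC1 (-0.22 ± 0.24), P12BF4 (-0.19 ± 0.15), P12CF4 (-0.13 ± 0.04) and A1L19 (-0.029 ± 0.026; SD, n = 3 each). P12CF4 is named after its values were seen.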

How the results depend on the processing

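The number of members was 164 with exposed RNA in Cy3 alone, 61 of them shared with the 90, and 117 with Cy5 alone, 72 shared. Leaving out 1 mine-water exposure gave 83 to 102, with 79 to 88 shared. No member passed between mine-water sites under any alternative run, and 1 passed for upstream with exposed RNA in Cy5 alone. Counts against control, which chose the members, were 0 at each mine-water site fitted alone, and 35 at downstream 1 with scaled arrays. Leaving out 1 exposure gave 29 to 51 at the entry, 16 to 36 at downstream 1 and 29 to 48 at downstream 2. Against upstream, leaving out 1 exposure gave 1 to 11 members for the entry, 0 to 3 for downstream 1 and 0 to 7 for downstream 2. With both sites alone these counts were 0, 0 and 0, also with the replicate block. All 24 arrays gave 45, 42 and 50, array weights 9, 2 and 3, and exposed RNA in Cy3 alone 4, 3 and 1. Scaled arrays gave 6 for the entry and 3 for downstream 1, and Cy5 alone gave 2 for downstream 1. Shares of all features are not given for these alternatives, so nothing is read from the counts. With the replicate block over all 12 exposures, downstream 1 gave 17 and downstream 2 gave 18 (0.704% of all features). For the 17 the share of all features is not given here either, so nothing is read from that count. The dye effect was called in 42 to 55 members. The causes were not tested. The block moved no other count at the adjusted threshold by over 1.5 times.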
